A study of Mus musculus with 6 samples.

Results

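The genes described here are 9 markers of lipid-associated macrophages, the macrophages that gather around dying fat cells in obese adipose tissue: Trem2, Tyrobp, Cd9, Lpl, Fabp5, Spp1, Gpnmb, Lgals3 and Itgax. They were taken by symbol from the deposited count table, which held 57180 Ensembl mouse genes, and each of the 9 symbols matched 1 row. The libraries came from macrophages of white adipose tissue, sorted for the surface proteins F4/80 and CD11b, of mice with a WT genotype on a high-fat diet. There were 3 libraries labelled HFD+MGIG, from mice also given MGIG (magnesium isoglycyrrhizinate, a liver-protective licorice derivative), and 3 libraries labelled HFD, from mice without it. The labels give no strain, age, sex, dose or duration. Whether the libraries stem from different animals is not stated. The p-values therefore reflect library-to-library spread, which may be technical. The series' design text names the sort, and the extraction protocol mentions tissue as the RNA source.

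In mouse and human obesity, lipid-associated macrophages sit in crown-like structures around dead adipocytes, take up lipid and break it down in lysosomes. Trem2 is a surface receptor that binds lipids and lipoproteins, and it signals through the adaptor DAP12, the product of Tyrobp. The other markers serve lipid handling (Lpl, Fabp5), adhesion and the cell surface (Cd9, Itgax), and secretion and lysosomes (Spp1, Gpnmb, Lgals3).

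Total counts were 2214456 to 4904302 in the HFD+MGIG libraries and 14437605 to 16740417 in the HFD libraries. Levels are given as CPM, the usual depth-scaled counts, in which 1 count was worth 0.204 to 0.452 CPM in HFD+MGIG and 0.0597 to 0.0693 CPM in HFD. Gene families that macrophages hardly use (olfactory, vomeronasal and bitter taste receptors, keratin-associated proteins and beta-defensins, 1599 genes) took 2.94%, 6.42% and 3.15% of counts in HFD+MGIG 1, 2 and 3, against 0.0624%, 0.280% and 0.117% in HFD 1, 2 and 3. For each gene and library a background bound was computed from these families: their 90th percentile of counts per kb, multiplied by the gene's exon length. Fold changes are given on the scale of all 23055 genes that passed the low-count filter. They are also given on a scale of 2608 background-limited genes, whose bound was at most 0.25 of their mean level. Both were averaged over all 6 libraries, so some genes in the set had a bound above 0.25 of their HFD+MGIG mean. On the first scale the background-limited genes had a median log2 fold change of −0.91, against 0.030 on their own scale. Macrophage identity genes were present in every library: the summed level of 15 such genes was 7175 to 17704 CPM in HFD+MGIG and 16232 to 18167 CPM in HFD. The lowest value was in HFD+MGIG 2, where each of the 9 markers except Fabp5 and Gpnmb also had its lowest level of the 6 libraries.

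Over all filtered genes, 5 of the 9 markers were lower in HFD+MGIG and 0 were higher in edgeR's quasi-likelihood test at an adjusted p under 0.05. They were Cd9, Fabp5, Spp1, Gpnmb and Itgax. Of all filtered genes 17.8% were lower and 42.9% higher in this test, and among the background-limited genes 43.1% were lower and 2.15% higher. On the background-limited scale 0 of the 7 markers in the set were lower and 0 higher, where 6.25% of its genes were lower and 4.45% higher. There 1 marker, Tyrobp, had an unadjusted p under 0.05, DESeq2 called 0 and limma voom called Tyrobp higher. The median log2 fold change of the markers was −1.03 over all filtered genes and −0.018 on the background-limited scale. Leaving out HFD 1, HFD 2 or HFD 3 changed the count of 5 to 2, 2 and 3, and leaving out HFD+MGIG 3 changed it to 1.

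**Figure D1:**
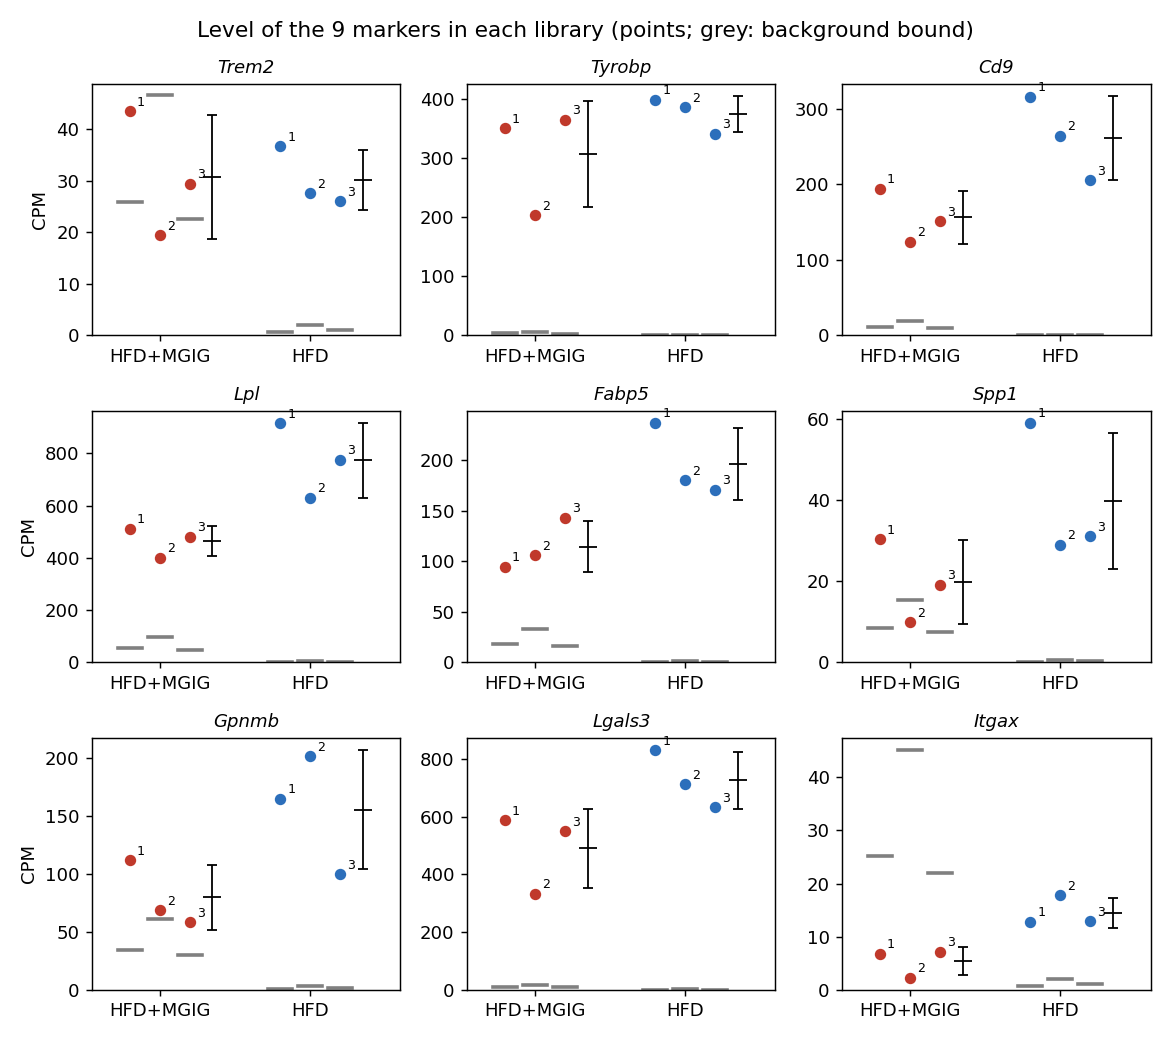
CPM of each marker in the 3 HFD+MGIG libraries (red) and the 3 HFD libraries (blue), with library numbers, the mean and SD in black beside them and the background bound of each library in grey. Cd9, Lpl, Fabp5, Lgals3 and Itgax do not overlap between the groups, and Itgax lies under its bound in every HFD+MGIG library. Of all filtered genes 23.7%, and of the background-limited genes 68%, are also lower in HFD+MGIG without overlap.

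Trem2 had nearly the same share of counts in both groups. It reached 43.4, 19.4 and 29.4 CPM in HFD+MGIG 1, 2 and 3, from 180, 43 and 144 estimated counts. In HFD 1, 2 and 3 it had 36.7, 27.5 and 26 CPM, from 614, 397 and 419 counts. The groups overlapped fully, with HFD+MGIG libraries at both ends of the range. The means were 30.7 ± 12 CPM in HFD+MGIG and 30.1 ± 5.77 CPM in HFD (SD, n = 3 each), and over all filtered genes the log2 value was −0.22 (SE 0.351, edgeR adjusted p = 0.583). Of 15 alternative settings 0 called it, and its sign turned with library totals as the scaling (0.064).

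How much of the Trem2 signal in HFD+MGIG lies above background depends on the exons counted. The annotated exons of Trem2 (ENSMUSG00000023992; mm10 chromosome 17, 48346401 to 48354147, plus strand) span 4946 bases together, but those of its 2 protein-coding transcripts among 4 span 1143 bases. With all exons the bound was 25.9, 46.5 and 22.6 CPM in HFD+MGIG 1, 2 and 3, so Trem2 stood at 1.68, 0.417 and 1.30 times its bound. In the HFD libraries it stood at 13.2 to 58.4 times its bound. With coding-transcript exons alone the bound was 6.40, 11.7 and 5.70 CPM in HFD+MGIG, below the Trem2 level in each of the 3 libraries. Trem2 was thus outside the main background-limited set and inside the 3323-gene set built on coding-transcript exons, an alternative chosen after the data were seen. In that set its log2 fold change was 0.64 (SE 0.199, edgeR adjusted p = 0.0793), with a range of 0.51 to 0.79 when each library was left out (adjusted p = 0.071 to 0.248).

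Tyrobp encodes DAP12, the membrane adaptor that passes signals from Trem2 and related receptors to the kinase Syk. The gene (ENSMUSG00000030579) lies on mm10 chromosome 7, 30413760 to 30417585, plus strand. It had 351, 203 and 365 CPM in HFD+MGIG 1, 2 and 3, against 399, 386 and 341 CPM in HFD 1, 2 and 3. HFD+MGIG 2 was the low library, and the other HFD+MGIG libraries lay within the HFD range. Means were 307 ± 89.8 CPM in HFD+MGIG and 375 ± 30.7 CPM in HFD (SD, n = 3 each). Over all filtered genes the log2 value of Tyrobp was −0.58 (SE 0.449, edgeR adjusted p = 0.27), which missed the threshold. The background-limited value was 0.39 (SE 0.131; edgeR adjusted p = 0.0993, limma voom adjusted p = 0.0424). The sign differed between the scales. Tyrobp was 32.4 to 120 times above its bound in HFD+MGIG.

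The promoter of Trem2 is shown with those of Spp1 and Itgax, since the first had the fold change nearest to 0 over all filtered genes and the other pair are among the 3 markers with the lowest. The sequences are the 250 bases before the RefSeq start (GRCm38.p6, the mm10 assembly), with capitals marking matches to the motifs TGAGTCA of AP-1, CACGTG of basic helix-loop-helix factors such as Mitf and Tfeb, and GAGGAAGT of PU.1. Both strands were searched, and no matches overlapped. RefSeq entries were matched for 6 of the 9 markers.
Trem2, chr17:48346151-48346400, plus strand: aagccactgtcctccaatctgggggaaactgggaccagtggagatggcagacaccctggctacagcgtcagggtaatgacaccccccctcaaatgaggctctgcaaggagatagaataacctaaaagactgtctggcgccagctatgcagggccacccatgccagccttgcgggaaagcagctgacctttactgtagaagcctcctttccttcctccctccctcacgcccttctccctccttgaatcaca
Spp1, chr5:104434861-104435110, plus strand: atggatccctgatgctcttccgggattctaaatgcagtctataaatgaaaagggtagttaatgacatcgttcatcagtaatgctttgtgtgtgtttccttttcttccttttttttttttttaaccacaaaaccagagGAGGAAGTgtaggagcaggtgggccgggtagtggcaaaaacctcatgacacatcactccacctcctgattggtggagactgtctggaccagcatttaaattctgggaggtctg
Itgax, chr7:128129300-128129549, plus strand: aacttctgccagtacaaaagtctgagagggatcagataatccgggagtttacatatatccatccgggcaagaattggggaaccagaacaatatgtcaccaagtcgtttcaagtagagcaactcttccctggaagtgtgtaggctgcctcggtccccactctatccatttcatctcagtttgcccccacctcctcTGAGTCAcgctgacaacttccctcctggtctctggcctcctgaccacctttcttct
The Spp1 window holds 1 PU.1 match, 113 bases before the start, and the Itgax window holds 1 AP-1 match, 56 bases before the start. Of 32851 promoter windows of this length, 2.44% hold the PU.1 motif, 4.46% the AP-1 motif and 6.02% the CACGTG motif. The windows of Trem2, Cd9, Gpnmb and Lgals3 hold none of the 3 motifs. A match is a string of letters and shows no binding.

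Itgax, which encodes the integrin CD11c of inflammatory adipose macrophages and dendritic cells, was the least abundant marker and had the lowest log2 fold change of the 9. The gene (ENSMUSG00000030789) lies on chromosome 7, 128129547 to 128150657, plus strand. It had 6.75, 2.26 and 7.14 CPM in HFD+MGIG 1, 2 and 3, from 28, 4.76 and 35 estimated counts. In HFD 1, 2 and 3 it had 12.8, 17.8 and 12.9 CPM, from 215, 256.97 and 207.98 counts. The groups did not overlap. Itgax fell to 5.38 ± 2.71 CPM in HFD+MGIG, against 14.5 ± 2.84 CPM in HFD (SD, n = 3 each; log2 fold change −1.66, SE 0.451, edgeR adjusted p = 0.00728). The alternatives that subtracted no background all called it lower (adjusted p = 0.00024 to 0.0398). Its HFD+MGIG levels were only 0.05 to 0.325 times the background bound, so Itgax could not be told from background there and is not in the background-limited set.

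Cd9 encodes a tetraspanin, a membrane organiser that marks the lipid-laden CD11c+ macrophages of obese fat. The gene (ENSMUSG00000030342) lies on chromosome 6, 125460266 to 125494791, minus strand. It had 194, 124 and 151 CPM in HFD+MGIG 1, 2 and 3, against 316, 264 and 205 CPM in HFD 1, 2 and 3, without overlap. The means were 156 ± 35.5 CPM in HFD+MGIG and 262 ± 55.4 CPM in HFD (SD, n = 3 each). Cd9 was lower over all filtered genes, with a log2 value of −1.03 (SE 0.418, edgeR adjusted p = 0.0489). Its value was, on the background-limited scale, −0.031 (SE 0.192, adjusted p = 0.934). With HFD 1, HFD 2 or HFD 3 left out the first call did not hold (edgeR adjusted p = 0.131, 0.125 and 0.0853). The same was true with HFD+MGIG 3 left out (0.172). The antisense transcript gene Gm26728 covers 10.7% of the Cd9 exon bases, and its reads cannot be told from those of Cd9 in counts whose strand is not stated.

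Both lipid-handling markers had non-overlapping groups in CPM with HFD+MGIG lower, as had 23.7% of all filtered genes and 68% of the background-limited genes. Lpl encodes lipoprotein lipase, which frees fatty acids from triglyceride-rich lipoproteins and is also made in quantity by adipocytes. Lpl (ENSMUSG00000015568) lies on chromosome 8, 68880491 to 68907448, and Fabp5 (ENSMUSG00000027533) on chromosome 3, 10012548 to 10016607, both on the plus strand. The Lpl level was 511, 400 and 481 CPM in HFD+MGIG 1, 2 and 3 and 916, 630 and 775 CPM in HFD 1, 2 and 3. Fabp5, the epidermal-type fatty-acid-binding protein, which carries fatty acids inside macrophages and endothelial cells, had 94.5, 106 and 143 CPM in HFD+MGIG 1, 2 and 3. In HFD 1, 2 and 3 Fabp5 had 237, 180 and 171 CPM. HFD 1 was the highest library for both genes. Fabp5 has processed pseudogenes in the mouse genome, and whether its counts share reads with them was not tested.

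Lpl averaged 464 ± 57.2 CPM in HFD+MGIG and 774 ± 143 CPM in HFD, and its log2 ratio of −1.03 did not pass the threshold (SE 0.449, edgeR adjusted p = 0.0627). DESeq2 and limma voom called it lower (adjusted p = 0.000336 and 0.00124), as did edgeR without HFD+MGIG 2 (0.00299). Fabp5 averaged 114 ± 25.4 CPM in HFD+MGIG and 196 ± 35.7 CPM in HFD and was lower (−1.08, SE 0.379, edgeR adjusted p = 0.0265). Leaving out any library but HFD+MGIG 2 ended that call, with edgeR adjusted p = 0.0881, 0.0697 and 0.0654 for HFD 1, 2 and 3. For HFD+MGIG 1 and 3 it was 0.0629 and 0.0555. Lpl had, on the background-limited scale, 0.0040 (SE 0.204, edgeR adjusted p = 0.995) and Fabp5 −0.018 (SE 0.264, edgeR adjusted p = 0.974). The sign of Lpl there turned with library totals (−0.092).

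Markers of other cells that make Lpl or Fabp5 also differed. The summed level of 8 adipocyte markers was 354 to 551 CPM in HFD+MGIG and 759 to 1742 CPM in HFD, with 7 of 8 lower over all filtered genes and 1 of 4 lower on the background-limited scale. For 10 endothelial markers the sums were 445 to 801 CPM in HFD+MGIG and 1987 to 2378 CPM in HFD, with 10 of 10 and 4 of 5 lower. In the fit over all filtered genes 17.8% of genes were lower, and 43.1% of background-limited genes. On the background-limited scale 6.25% were lower. Car3, carbonic anhydrase 3 of adipocytes, had 219 ± 50 CPM in HFD+MGIG and 832 ± 312 CPM in HFD (−1.20 on the background-limited scale, edgeR adjusted p = 0.0436). Pecam1, the endothelial adhesion protein CD31, had 150 ± 68.9 CPM in HFD+MGIG and 539 ± 25.6 CPM in HFD (−1.21, adjusted p = 0.00759). No gene of either list was at 0 in any library. Fewer cells of a type and less RNA per cell cannot be told apart in these bulk libraries, and the part of adipocyte or endothelial RNA in the levels of Lpl and Fabp5 was not tested.

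Spp1 encodes osteopontin, a secreted adhesion protein that attracts macrophages. The gene (ENSMUSG00000029304) lies on chromosome 5, 104435118 to 104441050, plus strand. It had 30.4, 9.93 and 19.2 CPM in HFD+MGIG 1, 2 and 3, against 59.1, 29 and 31.1 CPM in HFD 1, 2 and 3. The groups overlapped, since HFD+MGIG 1 lay above HFD 2. The means were 19.8 ± 10.2 CPM in HFD+MGIG and 39.8 ± 16.8 CPM in HFD (SD, n = 3 each). Spp1 was lower over all filtered genes, with a log2 value of −1.22 (SE 0.424, edgeR adjusted p = 0.0256). It was not called with HFD 1 left out (adjusted p = 0.0869) or with HFD+MGIG 3 left out (0.0983). Its value on the background-limited scale was −0.35 (SE 0.316, edgeR adjusted p = 0.515). In HFD+MGIG 2 Spp1 had 22 counts and lay at 0.641 times its bound. The unclassified gene Gm42793 on the same strand shares 18.8% of the Spp1 exon bases.

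Gpnmb (ENSMUSG00000029816; chromosome 6, 49036546 to 49070929, plus strand) encodes a lysosomal and cell-surface glycoprotein induced in lipid-loaded macrophages. It had 112, 68.6 and 58.5 CPM in HFD+MGIG 1, 2 and 3. In HFD 1, 2 and 3 it had 165, 202 and 100 CPM. HFD+MGIG 1 lay above HFD 3, so the groups overlapped. The means were 79.8 ± 28.6 CPM in HFD+MGIG and 156 ± 51.4 CPM in HFD (SD, n = 3 each; log2 fold change −1.26, SE 0.435, edgeR adjusted p = 0.0246). Gpnmb no longer passed with HFD 2 left out (edgeR adjusted p = 0.1). The adjusted p was 0.0738 with HFD+MGIG 2 left out and 0.138 with HFD+MGIG 3 left out. The background-limited value was −0.26 (SE 0.313, edgeR adjusted p = 0.633).

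Lgals3 (ENSMUSG00000050335; chromosome 14, 47367751 to 47386160, plus strand) encodes galectin-3, a secreted and cytosolic lectin abundant in phagocytes. It had 587, 333 and 550 CPM in HFD+MGIG 1, 2 and 3, against 831, 713 and 632 CPM in HFD 1, 2 and 3. The groups did not overlap. The means were 490 ± 137 CPM in HFD+MGIG and 725 ± 100 CPM in HFD (SD, n = 3 each), and the log2 ratio was −0.84 (SE 0.473, edgeR adjusted p = 0.133). The background-limited value of Lgals3 was 0.12 (SE 0.145, edgeR adjusted p = 0.633). DESeq2 and limma voom called it lower over all filtered genes (adjusted p = 0.0249 and 0.0166), and so did edgeR with HFD+MGIG 2 left out (0.0203). In CPM, 5 of the 9 markers had non-overlapping groups with HFD+MGIG lower, as had 23.7% of all filtered genes and 68% of the background-limited genes. With HFD+MGIG higher there were 0 markers, 48.9% of all filtered genes and 2.8% of the background-limited genes.

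**Figure D2:**
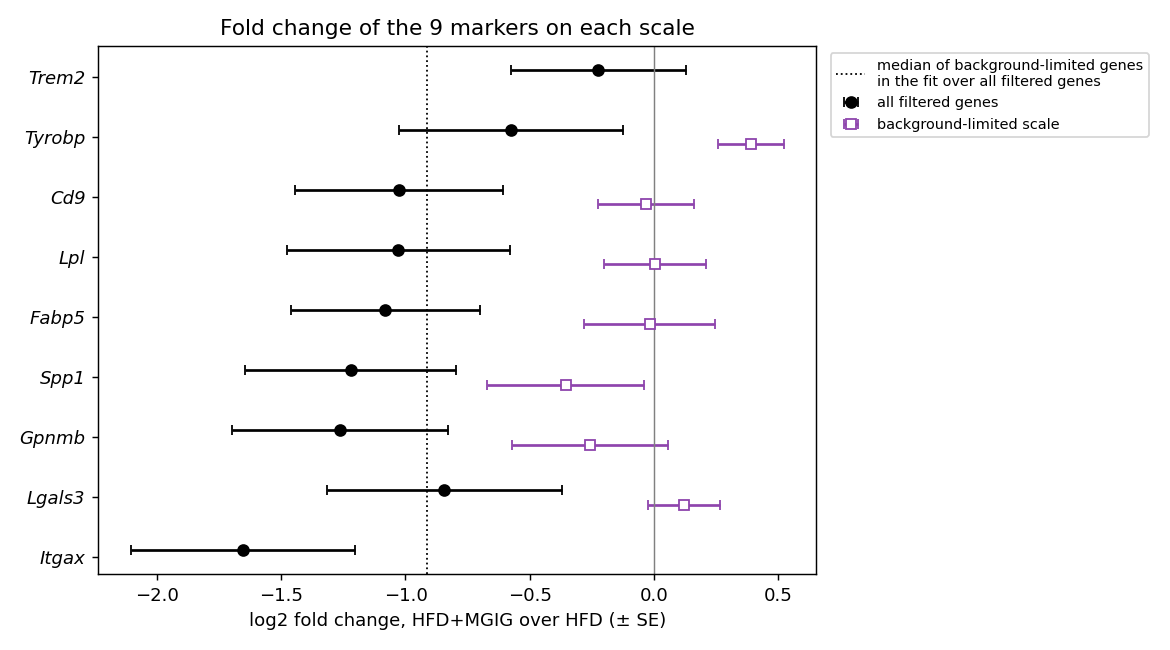
Log2 fold change (HFD+MGIG over HFD) and SE of each marker in the fit over all filtered genes (black) and on the background-limited scale (purple), where Trem2 and Itgax have no value. The dotted line marks −0.91, the median of the background-limited genes in the first fit, and the markers spread to both sides of it.

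Compared per kb of coding-transcript exons, the order of the markers was nearly the same in both groups. Tyrobp led with 514 ± 150 CPM per kb in HFD+MGIG and 629 ± 51.4 CPM per kb in HFD, followed by Lgals3 with 264 ± 74.0 in HFD+MGIG and 390 ± 53.8 in HFD. Cd9, Fabp5 and Lpl came next, at 113 to 127 CPM per kb in HFD+MGIG and 188 to 213 in HFD. In HFD they differed among themselves by less than their SDs, and in HFD+MGIG Cd9 (127 ± 28.9) and Lpl (113 ± 13.9) differed by less than the SD of Cd9 alone. Trem2, Gpnmb and Spp1 had 26.9, 17.7 and 12 CPM per kb in HFD+MGIG, and 26.3, 34.5 and 24.1 in HFD. Trem2 thus stood above Gpnmb in HFD+MGIG and below it in HFD, in each case by less than the larger SD of the pair (10.5 and 11.4). Itgax was last, with 1.24 ± 0.626 CPM per kb in HFD+MGIG and 3.35 ± 0.655 in HFD.

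Set against the macrophage genes of the same library, 8 of the 9 markers overlapped between the groups. For each library the mean log2 level of 15 macrophage identity genes (CPM plus 1) was subtracted from that of the marker. The difference of the group means, HFD+MGIG minus HFD, was 0.58 for Trem2 and 0.28 for Tyrobp, 0.012 for Lgals3, and −0.12 to −0.17 for Lpl, Cd9 and Fabp5. It was −0.34 for Gpnmb and −0.41 for Spp1. Single libraries moved most of these values. Without HFD+MGIG 3 the Gpnmb difference was 0.030, without HFD 1 that of Spp1 was −0.048, and without HFD+MGIG 1 that of Fabp5 was 0.21. With each library left out Trem2 ranged over 0.43 to 0.78 and Tyrobp over 0.12 to 0.40, while Cd9, Lpl and Lgals3 took both signs. Itgax was the marker without overlap, at −5.89, −5.77 and −5.68 in HFD+MGIG 1, 2 and 3, against −5.07, −4.68 and −5.28 in HFD 1, 2 and 3. The Itgax difference was −0.77, −0.91 to −0.60 with each library left out and −0.34 with a pseudocount of 5 CPM. With the 90th percentile background subtracted it was −2.78, and that of Trem2 was −1.43. That subtraction takes more than the whole level of Itgax in each HFD+MGIG library and of Trem2 in HFD+MGIG 2. With 3 libraries a group an exact two-sided permutation test cannot go below 0.1, so these differences are given without a test.

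**Figure D3:**
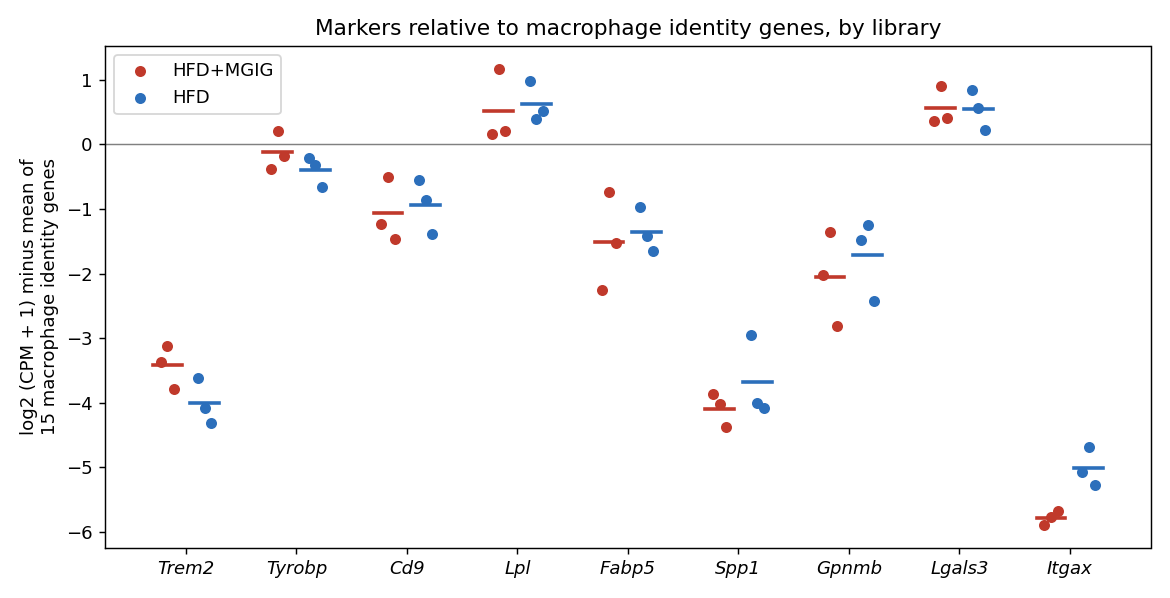
Level of each marker relative to the mean of 15 macrophage identity genes (log2 of CPM plus 1) in the HFD+MGIG libraries (red, left) and the HFD libraries (blue, right), with group means as bars. Itgax is the marker whose groups do not overlap, and Trem2 has a mean of −3.42 in HFD+MGIG and −4.01 in HFD.

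Of 22 other genes of lipid-associated macrophages, edgeR called 7 lower and 0 higher over all filtered genes (median log2 fold change −0.84). In that fit 17.8% of all filtered genes were lower and 42.9% higher. Of the background-limited genes, which include 16 of the 22, 43.1% were lower there. On the background-limited scale edgeR called 1 of 16 lower and 1 higher (median 0.058), where 6.25% of genes were lower and 4.45% higher. Axl, a receptor for apoptotic cells, fell to 75.2 ± 28.4 CPM in HFD+MGIG, against 186 ± 0.749 CPM in HFD (−0.65 on the background-limited scale, SE 0.134, edgeR adjusted p = 0.0199). Ctsl, the lysosomal protease cathepsin L, rose on that scale (0.84, SE 0.16, edgeR adjusted p = 0.0147), with 484 ± 136 CPM in HFD+MGIG and 440 ± 24.2 CPM in HFD. In the fit over all filtered genes Ctsl had −0.15 (edgeR adjusted p = 0.779). Neither held when any 1 HFD library was left out (edgeR adjusted p = 0.061 to 0.0845), nor did Axl with HFD+MGIG 1 left out (0.0589). Cstb, the cathepsin inhibitor cystatin B, had 0.54 on the background-limited scale (SE 0.153, edgeR adjusted p = 0.0586; DESeq2 adjusted p = 0.0289, limma voom 0.0277).

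Of 11 genes that carry or regulate the Trem2 signal, edgeR called 6 lower and 0 higher over all filtered genes (median −1.04). In that fit 17.8% of all filtered genes were lower, and 43.1% of the background-limited genes, which include 6 of the 11. Plcg2 and Lat2, both called, had HFD+MGIG means of 21.8 and 16.4 CPM, below their bounds of 27.5 and 16.8 CPM. On the background-limited scale edgeR called 0 of 6 in either direction, while DESeq2 and limma voom called Syk (adjusted p = 0.0207 and 0.0316) and Adam10 (0.0248 and 0.0244) lower, as did edgeR with library totals (0.0344 and 0.0318). Syk, the kinase recruited by DAP12, had 135 ± 57.7 CPM in HFD+MGIG and 332 ± 64.1 CPM in HFD (−1.58, SE 0.494, edgeR adjusted p = 0.0156; −0.66, adjusted p = 0.0677 on the background-limited scale). Adam10, a protease that sheds the Trem2 ectodomain, and Inpp5d, a phosphatase that restrains the pathway, had −0.54 and −0.20 on that scale (edgeR adjusted p = 0.0616 and 0.415). Of 7 other receptors that couple to DAP12, 2 were lower and 0 higher over all filtered genes (median −0.41). In the background-limited set 1 of them, Cd300lb, had −0.23 (edgeR adjusted p = 0.423).

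Of 8 genes of lipoprotein lipase handling, edgeR called 4 lower and 1 higher over all filtered genes (median −0.72). In that fit 17.8% of all filtered genes were lower and 42.9% higher, and 43.1% of background-limited genes were lower. The higher gene, Vldlr, had an HFD+MGIG mean of 19 CPM, below its bound of 64.4 CPM. On the background-limited scale edgeR called 0 of 2. Gpihbp1, which holds the lipase on capillary endothelium, had 76.7 ± 40.6 CPM in HFD+MGIG and 195 ± 52.1 CPM in HFD (−0.65 on that scale, adjusted p = 0.242 in edgeR). Angptl4, an inhibitor of the lipase, had 371 ± 165 CPM in HFD+MGIG and 883 ± 52 CPM in HFD (−0.61 on that scale, adjusted p = 0.0768 in edgeR). DESeq2 called Angptl4 lower there (adjusted p = 0.0175), as did edgeR with library totals (0.0413), with a bound of 0.1 (0.044) and without HFD+MGIG 3 (0.0285). Among 5 fatty-acid-binding protein and PPAR genes, 3 were lower and 1 higher over all filtered genes (median −1.08). Pparg, the nuclear receptor that drives lipid storage genes, was the 1 gene of this list in the background-limited set and had −0.54 there (edgeR adjusted p = 0.0633; DESeq2 adjusted p = 0.0286). Its HFD+MGIG mean was 51.5 CPM, with a bound of 18.9 CPM.

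Of 7 receptors of osteopontin, edgeR called 5 lower and 0 higher over all filtered genes (median −1.14), and 2 of 3 lower on the background-limited scale. In the first fit 17.8% of all filtered genes and 43.1% of background-limited genes were lower, and in the second 6.25% were lower. Itgav and Itga9, both called in the first fit, had HFD+MGIG means of 24.8 and 26.9 CPM, below their bounds of 68.8 and 49.2 CPM. Itgb1, the beta-1 integrin chain found on most cells, fell to 317 ± 148 CPM in HFD+MGIG, against 902 ± 56.3 CPM in HFD (−0.89 on the background-limited scale, SE 0.169, edgeR adjusted p = 0.0147). Itgb5 fell to 29.2 ± 9.67 CPM in HFD+MGIG, against 73.4 ± 4.73 CPM in HFD (−0.66, SE 0.166, edgeR adjusted p = 0.0411). The Itgb5 bound in HFD+MGIG was 22.7 CPM, and its levels in HFD+MGIG 1, 2 and 3 were 39.8, 20.8 and 27.1 CPM. Itgb5 is in the set through its HFD mean, so its call is not clear of background. Cd44, a hyaluronan and osteopontin receptor of leukocytes, had −0.079 on the same scale (edgeR adjusted p = 0.725). Neither call held when any 1 HFD library or HFD+MGIG 3 was left out (edgeR adjusted p = 0.0517 to 0.16), nor did that of Itgb5 with HFD+MGIG 1 left out (0.0699). Endothelial and mural cells carry both integrin chains. Besides the endothelial sums given above, 6 pericyte and smooth muscle markers summed to 364 to 630 CPM in HFD+MGIG and 1020 to 1502 CPM in HFD, with none at 0, and their part in the integrin values was not tested.

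In the remaining partner lists edgeR called 0 genes on the background-limited scale. DESeq2 and limma voom called Cd63 higher (adjusted p = 0.0226 and 0.0198) and Tln1, the integrin activator talin, lower (0.0289 and 0.0477), and edgeR called Tln1 with library totals (0.0466) and without HFD+MGIG 3 (0.0316). Tln1 had an HFD+MGIG mean of 80.6 CPM with a bound of 62.7 CPM, and 36.6 CPM in HFD+MGIG 2. It is in the set through its HFD mean of 192 CPM, so these calls are not clear of background. Of 4 other galectins 1 was lower over all filtered genes, Lgals1 (edgeR adjusted p = 0.0495), which had −0.065 on the background-limited scale. Of 5 tested beta-2 integrin genes and activators 2 were lower, and Itgam, the CD11b chain used in the sort, had −0.48 on the background-limited scale (edgeR adjusted p = 0.357). Of 8 other tetraspanins and CD9 partners 3 were lower and 1 higher, Ptgfrn, whose HFD+MGIG mean of 11.4 CPM lay below its bound of 67 CPM. Among all filtered genes 17.8% were lower and 42.9% higher. On the background-limited scale Cd63, a lysosomal tetraspanin, had 0.55 (edgeR adjusted p = 0.0613) and Cd81 −0.22 (0.371). The 4 MiT transcription factors, which drive lysosomal genes and Gpnmb, were outside the set. Over all filtered genes Tfeb was lower (−1.14, edgeR adjusted p = 0.0122) and Tfec higher (0.84, adjusted p = 0.0354), with HFD+MGIG means of 12.6 and 20.4 CPM below their bounds of 36.3 and 35.8 CPM. The Tfec call ended without HFD 1, HFD 2 or HFD 3 (edgeR adjusted p = 0.133, 0.102 and 0.104), without HFD+MGIG 1 (0.124) and with no filter (0.16).

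**Figure D4:**
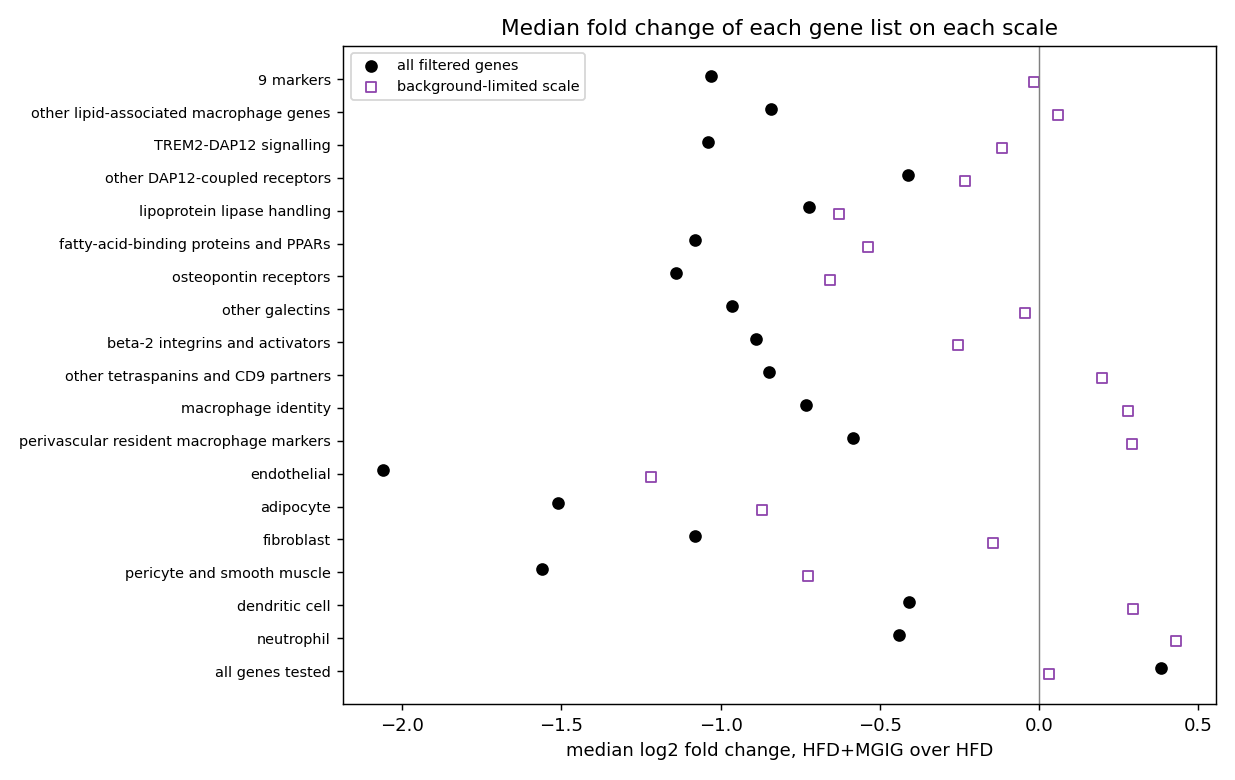
Median log2 fold change (HFD+MGIG over HFD) of the 9 markers, most partner and cell type lists and all genes tested. Black is over all filtered genes and purple the background-limited scale. Not drawn are the T and NK cell, B cell, mesothelial and MiT lists, with medians of 0.82, 0.20, 3.17 and −0.40 over all filtered genes. The markers have −1.03 and, for the 7 in the set, −0.018. Macrophage identity genes have −0.73 and 0.28, and endothelial markers −2.06 and −1.22.

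The median of the markers lay between those of the macrophage identity and endothelial lists. Not every marker did so. Over all filtered genes Trem2 had −0.22 and Tyrobp −0.58, above the macrophage identity median. Of 15 macrophage identity genes 0 were called over all filtered genes (median −0.73) and 0 of 13 on the background-limited scale (median 0.28). Lyz2, lysozyme, led them with 6709 ± 2597 CPM in HFD+MGIG and 7881 ± 485 CPM in HFD. Of 8 perivascular resident macrophage markers 0 were called over all filtered genes (median −0.59). On the background-limited scale 1 of 8 was higher, beside 4.45% of its genes. It was Cbr2, a carbonyl reductase, which is named after its values were seen (0.60, SE 0.146, edgeR adjusted p = 0.0338). The 9 markers had −1.03, the 7 of them in the background-limited set −0.018, and the endothelial markers −2.06 and −1.22. All background-limited genes had a median of 0.030 on their own scale, near that of the markers. The differences between these medians were not tested. Of the dendritic cell markers, the other cell type with CD11c, the summed level was 561 to 1013 CPM in HFD+MGIG and 802 to 992 CPM in HFD. Of these 8 genes 2 were lower and 1 higher over all filtered genes, beside 17.8% and 42.9% of all filtered genes. Xcr1 (higher) and Fscn1 (lower) had HFD+MGIG means of 16 and 4.59 CPM, below their bounds of 28.5 and 19.3 CPM. None of the dendritic cell markers was at 0, and their part in the Itgax level was not tested.

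Among the background-limited genes, those whose centred log2 profile over the 6 libraries differed least from Trem2 were Gsto1, Rgs10, Dpep1, Ms4a6c and Blvra, with root mean square differences of 0.142 to 0.169. Ms4a6c and Rgs10 were higher on the background-limited scale (0.78 and 0.52, edgeR adjusted p = 0.0121 and 0.0443), where 4.45% of genes were higher. The genes were picked by their profile over these same libraries, group difference included, so these calls are no separate result. Those nearest to Gpnmb were Aspn, Efna1, Prss23, Tsc22d3 and H2-M9, at 0.161 to 0.21, and 0 of them was called. These profiles share the library differences in depth and background, and the likeness is a description over 6 libraries.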

How the data were processed

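RNA sequencing of sorted adipose tissue macrophages gave 3 HFD+MGIG and 3 HFD libraries, made from 10 ng of RNA with an amplifying SMART-Seq kit, per the labels' protocols. The authors deposited estimated counts, many of them fractional. Per the submitters' processing notes, fastp, HISAT2, StringTie and mm10 were used; no source used here names the counting program or strand setting. Counts were rounded. Of 57180 IDs, 51933 were in GENCODE M21 (mm10), which gave symbols and exons. Promoters came from RefSeq (GRCm38.p6).

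Groups were compared by quasi-likelihood (edgeR 4.0.16, R 4.3.3; TMM factors, filterByExpr, robust fit, group as the only term), with Benjamini-Hochberg adjustment over all genes tested. It was run on all filtered genes and on background-limited genes (protein-coding, at least 2 exon blocks, bound at most 0.25 of the mean CPM). DESeq2 1.42.0 and limma 3.58.1 voom were alternatives. The fits were also run on counts simulated from HFD proportions in both groups. No background was added there, so that run does not test the fits under the background of HFD+MGIG. Markers, lists and scales were chosen with earlier results of these data known. Named genes were the markers, up to 3 of each partner list with the smallest p on the background-limited scale, or over all filtered genes where the list had none there, the 2 most abundant genes of each cell type list, and the 5 genes most like Trem2 or Gpnmb; the text gives a part of these, and Cbr2 and Apoe were added after their values were seen. 0 sample columns were left unused.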

Additional observations from a re-analysis of the deposited data

How the results depend on the processing

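Over all filtered genes the 5 lower markers became 7 with DESeq2, 7 with voom, 2 with library totals, 3 with the replicate block, 1 with the median background subtracted, 1 with the 90th percentile background subtracted and 1 with a minimum of 5 CPM in 3 libraries, and 1 to 6 with each library left out. The cause of these changes was not tested. The 90th percentile subtraction also gave 2 higher markers, Tyrobp (1.02, edgeR adjusted p = 0.00368) and Lgals3 (0.74, 0.0112), both with a log2 fold change below 0 in the unsubtracted fit. It gave Cd9, Lpl and Fabp5 values of 0.50, 0.42 and 0.30, and Tfec −9.07. This subtraction takes the whole HFD+MGIG level of low genes such as Itgax and Tfec, so their values under it are no measured folds. The sign of Trem2 turned with library totals (0.064), the median background subtracted (0.15) and a minimum of 5 CPM (0.14), and with each library left out it ranged over −0.66 to 0.038. Relative to macrophage identity, Trem2 turned to −1.43 with the 90th percentile subtracted. The median subtraction turned Tyrobp (0.29) and Lgals3 (0.013).

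On the background-limited scale 0 markers were lower under 16 settings, and 0 were higher except for 1, Tyrobp, with limma voom. Lpl, near 0, turned to −0.0080 with RLE factors, −0.092 with library totals, −0.0087 with DESeq2, −0.011 with voom, −0.0051 with the block, and −0.0073, −0.044 and −0.058 with bounds of 0.1, 0.5 and coding-transcript exons. Subtracting the median or 90th percentile turned Cd9 (0.081 and 0.41), Fabp5 (0.054 and 0.23), Lgals1 (0.049 and 0.39) and Lgals9 (0.027 and 0.19). The 90th percentile also turned Cd81 (0.19), and voom turned Lgals1 (0.080). With each library left out Cd9 ranged over −0.19 to 0.10, Lpl over −0.20 to 0.12, Fabp5 over −0.26 to 0.24, Spp1 over −0.59 to 0.025, Lgals1 over −0.20 to 0.18, Lgals8 over −0.23 to 0.039 and Lgals9 over −0.14 to 0.060, and none of them was called.

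Of 79 partner genes, 78 were tested, with 32 lower and 4 higher over all filtered genes. In that fit 17.8% of all filtered genes were lower and 42.9% higher. Of the background-limited genes 43.1% were lower there and 2.15% higher. Lower counts of partner genes became 50 with voom, 6 and 16 with the median and 90th percentile subtracted and 18 with 5 CPM, and 17 to 43 with each library left out. Higher counts became 1 and 10 with these subtractions and 2 with no filter, and 2 to 4 with each library left out. On the background-limited scale 39 partner genes were tested, with 3 lower and 1 higher, beside 6.25% and 4.45% of all its genes. Lower counts became 8 with library totals, 8 with DESeq2, 6 with voom and 0 with the 90th percentile subtracted, and 0 to 3 with each library left out. Higher counts became 5 with DESeq2, 5 with voom, 3 with the median and 0 with the 90th percentile subtracted, 2 and 3 with bounds of 0.1 and 0.5, and 2 with coding-transcript exons, and 0 to 3 with each library left out.

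TMM, RLE and library totals put the median log2 fold change of all filtered genes at 0.38, 0.54 and 0.74, and library totals gave 2426 lower and 10428 higher genes, against 4113 and 9902 with TMM. Of all filtered genes 6880 were lower and 10775 higher with voom, 1748 and 3521 with the median subtracted, 5891 and 1111 with the 90th percentile subtracted, and 1574 and 4582 with 5 CPM. With no filter they were 4902 and 18253, and with each library left out 2122 to 5563 and 9645 to 12351. Whether equal numbers mark paired libraries cannot be told from so few libraries. Deviations of same-numbered libraries correlated at −0.126, 0.113 and 0.219, and those of differently numbered libraries at −0.3 to 0.243. With the replicate block Cd9, Fabp5 and Itgb5 were no longer called (edgeR adjusted p = 0.0886, 0.062 and 0.0798). On the background-limited scale 163 genes were lower and 116 higher, 229 and 187 with DESeq2, 236 and 220 with voom, and 0 of either with the 90th percentile subtracted. With each library left out 44 to 189 were lower and 3 to 156 higher. Low totals in HFD+MGIG limit Itgax, with 4.76 to 35 counts.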

Other observations

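Clec10a, a lectin of dendritic cells and of some macrophages, was higher on the background-limited scale (log2 fold change 0.75, SE 0.162, edgeR adjusted p = 0.0228), with 705, 259 and 511 CPM in HFD+MGIG 1, 2 and 3 and 465, 412 and 477 CPM in HFD 1, 2 and 3. Its value over all filtered genes was −0.14 (edgeR adjusted p = 0.815). Apoe, the lipoprotein component and Trem2 ligand, which is named after its values were seen, had 8502, 3058 and 6894 CPM in HFD+MGIG 1, 2 and 3 and 6230, 4916 and 6773 CPM in HFD 1, 2 and 3, so HFD+MGIG libraries stood at both ends of its range. Apoe had 0.66 on the background-limited scale (SE 0.189, edgeR adjusted p = 0.06).

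Stromal and other leukocyte lists were mixed. Of 8 fibroblast markers 5 were lower over all filtered genes, beside 17.8% of all genes in that fit and 43.1% of the background-limited genes. On the background-limited scale 2 of 6 were lower, beside 6.25% of its genes. Col3a1, a fibrillar collagen, had 221 ± 105 CPM in HFD+MGIG and 1236 ± 251 CPM in HFD (−1.87 on that scale, edgeR adjusted p = 0.00598), while Dcn, the proteoglycan decorin, had 993 ± 188 CPM in HFD+MGIG and 802 ± 313 CPM in HFD (1.08, adjusted p = 0.0778). Of 7 T and NK cell markers 1 was lower, Cd4, and of 4 B cell markers 1 was higher, Ms4a1, over all filtered genes. Their HFD+MGIG means of 9.23 and 34.4 CPM lay below their bounds of 25.8 and 39.6 CPM. Of 4 tested neutrophil markers 1 was higher, Cxcr2, with an HFD+MGIG mean of 29.4 CPM and a bound of 19.5 CPM. Of 2 tested mesothelial markers 1 was higher, Msln, with 17.7 ± 12.3 CPM in HFD+MGIG and 0.345 ± 0.254 CPM in HFD (edgeR adjusted p = 0.000168). Its HFD+MGIG mean lies below its bound of 19.6 CPM, and 42.9% of all filtered genes were called higher.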
